A study of Mus musculus with 6 samples.

Results

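Skeletal muscle contracts when calcium leaves its internal store and relaxes when the store takes it back, and 10 genes of that cycle were followed here in condylar cartilage, the growth cartilage of the lower jaw joint. The genes, taken by symbol from the 24346 listed in each library, were Cacna1s, Cacng1, Ryr1, Trdn, Casq1, Casq2, Atp2a1, Atp2a2, Sln and Pvalb. RNA came from cartilage dissected from mice with the label fl/fl (the usual notation for a floxed gene; 3 libraries, called controls) and from mutant mice in which Ihh, the Indian hedgehog gene, was deleted in craniofacial neural crest cells (3 libraries). Neither age, sex, the Cre driver nor the pooling of animals is given in the sources used here, and the labels do not tie libraries to separate animals. The p-values therefore reflect the spread among these libraries, part of which may be technical. Where 3 values are given for a group, they are replicates 1, 2 and 3 in that order.

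As background, an action potential runs down the T-tubules, where the voltage sensor Cacna1s opens the release channel Ryr1 by direct contact across the junction called the triad. Calcium flows out of the sarcoplasmic reticulum, where calsequestrin binds it, and is pumped back by the SERCA pumps. Fast fibres use the pump Atp2a1 and buffer the cytosol with parvalbumin (Pvalb), whereas slow fibres and heart use Atp2a2 and express more of the calsequestrin Casq2. Atp2a2 also serves as the housekeeping pump of many cells outside muscle. In bulk tissue a smaller number of muscle cells and less RNA per muscle cell cannot be told apart.

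The labelled tissue was cartilage, and the cartilage collagen gene Col2a1 read 105, 88.5 and 159 FPKM (fragments scaled to transcript length and library depth) in the controls, against 50.8, 69.9 and 32.3 FPKM in the mutants. Muscle RNA was present in every library: Acta1, the skeletal muscle actin, read 1396 to 3038 FPKM in the controls, against 6603 to 11154 FPKM in the mutants. Of the heart markers, Nkx2-5 was listed at 0 in 5 libraries, Nppb and Myl7 in 4 each. Others were detected: Nppa read 13.4, 22.6 and 0 FPKM in the controls, against 11.2, 7.46 and 4.25 FPKM in the mutants, Tnnt2 read 3.86 to 8.54 FPKM and Tnni3 0.94 to 9.33 FPKM over all libraries. Of the 4 heart genes that could be tested limma called 0, with 0 at an unadjusted p below 0.05, and the mean of the 10 heart genes came to 1.20 to 1.30 in the controls, against 1.13 to 1.31 in the mutants (log2(FPKM + 1)). The targeted gene Ihh read 2.51 to 3.74 FPKM in the controls, against 2.18 to 2.66 FPKM in the mutants. It did not pass the test, and the deleted part is not stated. The spacing of the lowest values implied scaling totals of 1290000, 1290000 and 1730000 fragments for the controls, against 1290000, 1550000 and 1360000 for the mutants. Olfactory receptor genes, which are silent in most tissues, had a 90th percentile of 6.49 to 8.58 FPKM over 1102 genes, and both Cacna1s and Ryr1 lay below it in all 3 controls. FPKM is divided by transcript length, and the longest Ryr1 transcript has 15358 bases, so a low FPKM need not mean few fragments. Scaling to the plain total of mapped fragments is assumed here and not stated. Under it, the controls hold about 119, 74 and 149 fragments for Ryr1 and 31, 12 and 53 for Cacna1s. Xist, the transcript of the inactive X chromosome, reached 29.5 and 29.2 FPKM in controls 1 and 2, against 0.577 to 0.984 FPKM in control 3 and the mutants. The Y-linked gene Eif2s3y gave 0.89 and 0 FPKM in controls 1 and 2, against 38.4 to 47.4 FPKM in control 3 and the mutants, so that controls 1 and 2 differed in sex from the rest.

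Promoters of the fast pump Atp2a1 and of both calsequestrin genes are shown because the comparisons of fast and slow isoforms use them, and that of Pvalb because its level was set against Atp2a1. RefSeq entries (GRCm38.p6) matched 6 of the 10 genes, and those without a match were Atp2a2, Sln, Trdn and Cacng1. The 250 bases before the start site are given 5′ to 3′ on the strand of the gene, with E-boxes (CANNTG, a palindrome and so the same on both strands) and MEF2 sites (also a palindrome, none overlapping an E-box) in capitals. The windows are chr7:126463074-126463323 on the minus strand for Atp2a1, chr1:172219896-172220145 on the minus strand for Casq1, chr3:102086165-102086414 on the plus strand for Casq2 and chr15:78206401-78206650 on the minus strand for the more upstream start of Pvalb.
Atp2a1: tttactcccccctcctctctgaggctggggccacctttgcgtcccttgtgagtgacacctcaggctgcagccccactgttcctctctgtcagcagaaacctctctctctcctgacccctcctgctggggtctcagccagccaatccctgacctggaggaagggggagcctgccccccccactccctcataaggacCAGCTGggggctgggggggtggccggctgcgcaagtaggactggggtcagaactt
Casq1: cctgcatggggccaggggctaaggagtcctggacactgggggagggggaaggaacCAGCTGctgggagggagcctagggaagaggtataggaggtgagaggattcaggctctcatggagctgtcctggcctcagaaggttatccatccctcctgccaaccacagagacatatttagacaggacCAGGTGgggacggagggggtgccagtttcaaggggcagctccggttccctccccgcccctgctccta
Casq2: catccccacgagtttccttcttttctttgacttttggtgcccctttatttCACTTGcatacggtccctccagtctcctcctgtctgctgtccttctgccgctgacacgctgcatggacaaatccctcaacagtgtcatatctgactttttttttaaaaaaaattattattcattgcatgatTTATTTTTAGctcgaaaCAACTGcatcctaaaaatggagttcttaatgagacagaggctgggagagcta
Pvalb: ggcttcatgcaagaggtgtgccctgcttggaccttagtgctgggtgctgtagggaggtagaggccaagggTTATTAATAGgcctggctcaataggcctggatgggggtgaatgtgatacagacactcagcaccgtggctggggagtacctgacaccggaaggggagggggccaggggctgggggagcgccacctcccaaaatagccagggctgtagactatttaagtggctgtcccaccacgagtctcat
Atp2a1 holds 1 E-box, at -55 from the start. Casq1 holds 2 E-boxes, at -195 and -67. Casq2 holds 2 E-boxes, at -200 and -52, and 1 MEF2 site, at -69. The Pvalb window holds 1 MEF2 site, at -180, and no E-box, while the window of its other start holds 1 E-box, at -111. Cacna1s, also in the table, holds 2 E-boxes (-160 and -123) and Ryr1 holds neither motif. An E-box was found in 66.2% and a MEF2 site in 2.92% of 32851 promoter windows of this length, so an E-box is common background. These matches describe letters only.

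Mutant cartilage was set against control cartilage to ask whether genes of the calcium cycle differed after deletion of Ihh, and whether fast and slow isoforms moved alike. Of the 10 genes, 3 rose in mutants: the fast pump Atp2a1, the release channel Ryr1 and the junction protein Trdn (limma on log2(FPKM + 1), Benjamini-Hochberg adjusted p below 0.05 over 18715 genes). The other 7 did not pass and none fell. In the same fit 0.775% of all genes tested rose and 0.465% fell. In 8 of the 10 genes every mutant value lay above every control value, which held for 9.77% of all genes tested, and the groups overlapped for Atp2a2 and Pvalb. No gene of the 10 had every mutant value below every control value, which held for 9.40% of all genes tested. The median log2 fold change of the 10 genes was 1.39, beside 0.00 over all genes tested. The genes were chosen with earlier results of these data known, so these counts describe them and test nothing about the list.

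**Figure D1:**
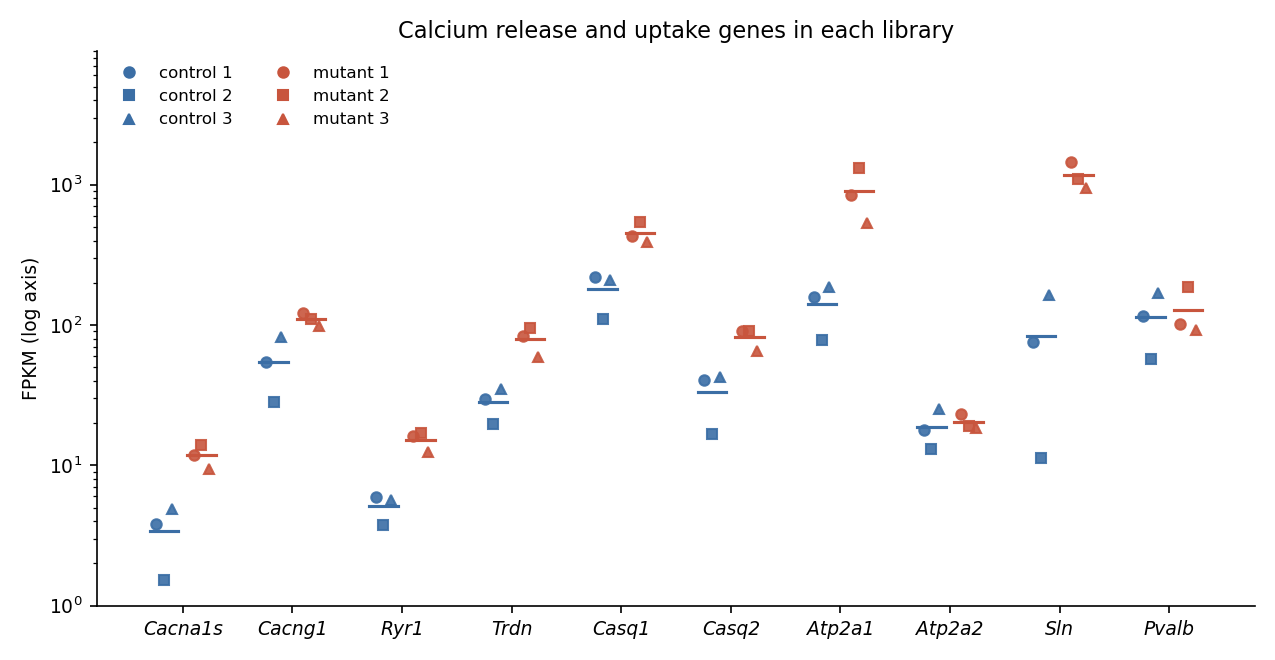
FPKM (log axis) of the 10 calcium genes in each library, with controls in blue, mutants in red, 1 symbol per replicate number and a line at each group's mean. Mutant and control points separate for 8 genes and overlap for Atp2a2 and Pvalb, and control 2 is the lowest library for all 10.

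Among the genes of the voltage sensor, Cacna1s, which encodes the pore-forming subunit of the L-type calcium channel of skeletal muscle (chromosome 1, 136052750 to 136119822, plus strand, mm10), read 3.84, 1.52 and 4.89 FPKM in the controls, against 11.9, 13.9 and 9.49 FPKM in the mutants. All mutants lay above all controls. Its log2 fold change was 1.60 ± 0.35 (SE; limma adjusted p = 0.0645), which did not pass. If FPKM was scaled to the plain total of mapped fragments, which was assumed here and is not stated, the value in control 2 corresponds to about 12 fragments, with an exact 95% interval for counting error of 6.2 to 21. Cacng1, the gamma subunit of the same channel (chromosome 11, 107703218 to 107716522, minus strand), read 54.5, 28.2 and 81.9 FPKM in the controls, against 121, 109 and 98.8 FPKM in the mutants. The groups did not overlap, with control 3 closest to the mutants, and the log2 fold change of 1.11 ± 0.34 did not pass (limma adjusted p = 0.166).

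Ryr1, the release channel of the sarcoplasmic reticulum (chromosome 7, 29003344 to 29125179, minus strand), read 5.97, 3.74 and 5.62 FPKM in the controls, against 16.1, 16.9 and 12.4 FPKM in the mutants. The mutants were higher without overlap, at 2.96 times the control mean, and Ryr1 rose by a log2 fold change of 1.41 ± 0.25 (limma adjusted p = 0.0377). Trdn encodes triadin, which ties calsequestrin to the release channel (chromosome 10, 33080554 to 33476709, plus strand). It read 29.9, 19.7 and 35.1 FPKM in the controls, against 83.8, 95.1 and 59.2 FPKM in the mutants. Trdn rose by a log2 fold change of 1.47 ± 0.26 (limma adjusted p = 0.0399), 2.81 times the control mean, and its groups did not overlap. The level of Ryr1 relative to that of its voltage sensor Cacna1s, as a ratio of FPKM within a library, came to 1.55, 2.46 and 1.15 in the controls, against 1.35, 1.22 and 1.30 in the mutants. These ratios overlapped.

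The calsequestrins are the calcium-binding proteins inside the store. Casq1, the main form of fast fibres (chromosome 1, 172209894 to 172219868, minus strand), read 219, 111 and 211 FPKM in the controls, against 433, 540 and 392 FPKM in the mutants. Casq2, the form of heart and slow fibres (chromosome 3, 102086415 to 102146514, plus strand), read 40.7, 16.7 and 42.8 FPKM in the controls, against 90.1, 90.2 and 65.5 FPKM in the mutants. Mutants lay above controls for both genes, and neither passed the test: the log2 fold change was 1.38 ± 0.28 for Casq1 (limma adjusted p = 0.0529) and 1.36 ± 0.34 for Casq2 (limma adjusted p = 0.099).

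Of the 2 pumps, 1 rose and 1 did not pass. Atp2a1, the fast-fibre SERCA pump (chromosome 7, 126445858 to 126463108, minus strand), read 158, 77.8 and 187 FPKM in the controls, against 843, 1305 and 535 FPKM in the mutants. Every mutant lay above every control, and Atp2a1 rose by a log2 fold change of 2.66 ± 0.39 (limma adjusted p = 0.023), 6.34 times the control mean. Rabep2 has exons that overlap those of Atp2a1 from the opposite strand, and reads of the pair are not told apart by strand here. Rabep2 read 5.37 to 9.64 FPKM in the controls, against 5.98 to 14.2 FPKM in the mutants, far below Atp2a1. Exons of Atp2a2, Ryr1, Cacna1s and Casq1 also overlap exons of opposite-strand genes. Those genes are not among the genes listed in the libraries, so their levels could not be checked.

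Atp2a2, the pump of slow fibres, heart and many other cells (chromosome 5, 122453513 to 122502225, minus strand), read 17.8, 12.98 and 25.3 FPKM in the controls, against 23.1, 19.1 and 18.5 FPKM in the mutants. The mutants lay within the range of the controls, with a log2 fold change of 0.15 ± 0.26 (limma adjusted p = 0.873). How much of this transcript came from muscle and how much from other cells was not tested.

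Sln encodes sarcolipin, a small membrane peptide that binds SERCA pumps and lowers the calcium moved per ATP spent (chromosome 9, 53850164 to 53854560, plus strand). It read 75.8, 11.2 and 164 FPKM in the controls, against 1461, 1094 and 939 FPKM in the mutants, a ratio of means of 13.9, the highest of the 10 genes. The mutants were far above the controls, but the controls themselves differed by 14.6 times from lowest to highest, against 1.59 to 3.22 times for the other 9 genes. With that spread the log2 fold change of 4.41 ± 0.96 did not pass (limma adjusted p = 0.115). The call depended on the libraries and the moderation: without control 2, where Sln corresponds to about 19 fragments under the same assumption, the log2 fold change was 3.35 and passed (adjusted p = 0.0395), and without control 3 it was 5.22 and also passed (adjusted p = 0.0448). Moderation that was not robust gave an adjusted p of 0.0462, in a range of 0.0395 to 0.984 over all alternatives.

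Pvalb, the cytosolic calcium buffer of fast fibres (chromosome 15, 78191114 to 78206400, minus strand), read 116, 57.4 and 168 FPKM in the controls, against 102, 188 and 92.1 FPKM in the mutants. Mutants 1 and 3 lay below controls 1 and 3, mutant 2 lay above all controls, and the log2 fold change was 0.21 ± 0.40 (limma adjusted p = 0.883).

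Ordered by level per transcript length, the control means placed Casq1 first (180 ± 60.1 FPKM, SD, n = 3), then Atp2a1 (141 ± 56.7), Pvalb (114 ± 55.5), Sln (83.8 ± 76.8), Cacng1 (54.9 ± 26.9), Casq2 (33.4 ± 14.5), Trdn (28.2 ± 7.83), Atp2a2 (18.7 ± 6.23), Ryr1 (5.11 ± 1.20) and Cacna1s (3.42 ± 1.72). Neighbours in that order overlapped within 1 SD of their means, except that Ryr1 stood below Atp2a2. In mutants the order was Sln (1165 ± 268), Atp2a1 (894 ± 388), Casq1 (455 ± 76.2), Pvalb (127 ± 52.4), Cacng1 (110 ± 11.2), Casq2 (81.9 ± 14.2), Trdn (79.4 ± 18.4), Atp2a2 (20.2 ± 2.50), Ryr1 (15.1 ± 2.42) and Cacna1s (11.8 ± 2.2). There, the ranges of 1 SD around neighbouring means did not overlap between Casq1 and Pvalb, between Cacng1 and Casq2, between Trdn and Atp2a2 and between Atp2a2 and Ryr1. Sln took 10.5, 3.30 and 17.7% of the summed FPKM of the 10 genes in the controls, against 45.9, 31.5 and 42.3% in the mutants. Pvalb took 16.1 to 18.2% in the controls, against 3.21 to 5.40% in the mutants. The shares of all 10 genes separated the groups, higher in mutants for Sln and Atp2a1 and lower for the other 8. Shares sum to 100%, so a lower share goes with the higher Sln and Atp2a1 levels, and the FPKM of Pvalb itself overlapped between the groups. Sln was the largest share in mutants 1 and 3, and Atp2a1 in mutant 2.

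Ratios within a library set 1 isoform against the other. The ratios printed are of plain FPKM, whereas their log2 differences and permutation tests used log2(FPKM + 1) of each gene. Where both transcripts come from muscle alone such a ratio does not move with the amount of muscle RNA, but Atp2a2 is also made by other cells. Atp2a1 to Atp2a2, the fast to slow pump ratio, came to 8.89, 5.99 and 7.39 in the controls, against 36.5, 68.4 and 28.9 in the mutants. The mutant ratios were all higher, by 2.51 on the log2 scale (exact permutation test, two-sided, p = 0.1, the smallest that 3 against 3 libraries allow; adjusted p = 0.233 over 7 ratios). A shift of isoform within muscle and more muscle RNA beside an Atp2a2 level from other cells cannot be told apart here. Casq1 to Casq2, the fast to slow calsequestrin ratio, came to 5.37, 6.64 and 4.92 in the controls, against 4.81, 5.98 and 5.98 in the mutants. The groups overlapped, and the log2 difference was 0.02 (exact permutation p = 1), with values from -0.07 to 0.13 when each library was left out in turn. The groups separated for the pump pair and overlapped for the calsequestrin pair, and the difference between the pairs was not tested.

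The other 5 ratios were chosen after the values were seen. Pvalb to Atp2a1 came to 0.735, 0.738 and 0.90 in the controls, against 0.121, 0.144 and 0.172 in the mutants, all mutants lower (exact permutation p = 0.1, adjusted p = 0.233). Sln to the pump it binds, Atp2a1, came to 0.480, 0.144 and 0.877 in the controls, against 1.73, 0.838 and 1.76 in the mutants, with mutant 2 inside the control range (exact permutation p = 0.2). Trdn to Casq1 came to 0.137 to 0.177 in the controls, against 0.151 to 0.193 in the mutants, and overlapped (exact permutation p = 0.6), as did Ryr1 to Cacna1s (exact permutation p = 0.5).

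**Figure D2:**
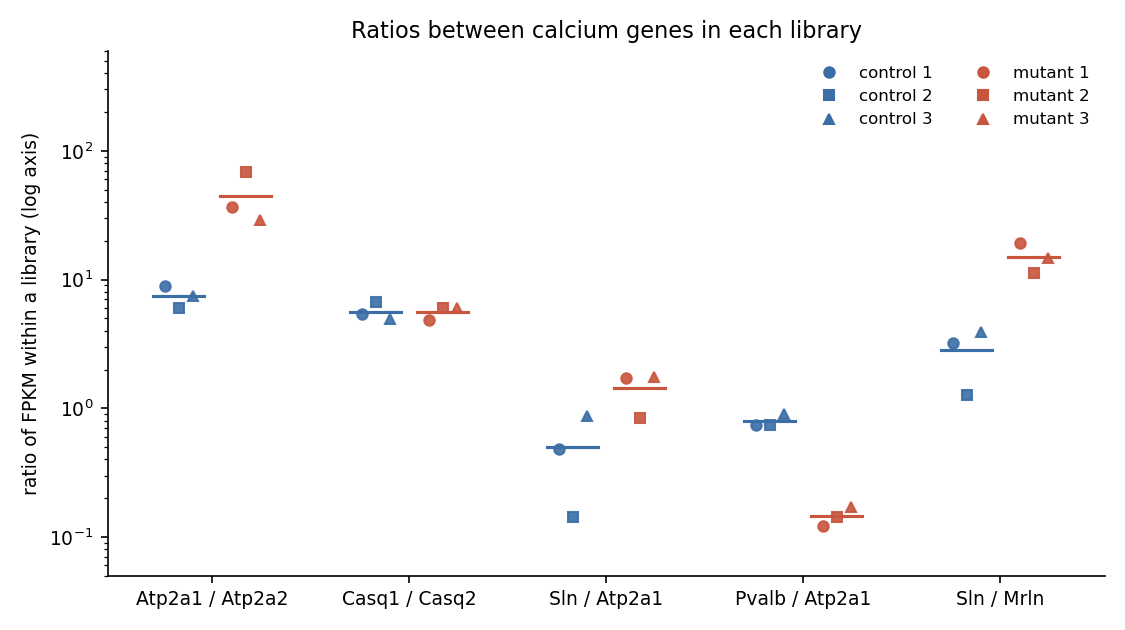
Ratio of FPKM between pairs of genes within each library (log axis), with controls in blue, mutants in red, 1 symbol per replicate number and a line at each group's mean. The Atp2a1 to Atp2a2 ratio is 5.99 to 8.89 in the controls, against 28.9 to 68.4 in the mutants, whereas the Casq1 to Casq2 ratio overlaps at 4.81 to 6.64 over all libraries.

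Other muscle transcripts moved with these genes. The mean log2(FPKM + 1) of 12 muscle reference genes, among them Acta1, the creatine kinase Ckm and titin (Ttn), came to 6.29, 5.50 and 6.46 in the controls, against 8.29, 8.45 and 7.46 in the mutants. Of these 12 genes 8 rose (background over all genes tested 0.775%), and all 12 separated the groups upward (background 9.77%). Control 2 had the lowest and mutant 3 the lowest mutant mean of that list, as they had the lowest control value for all 10 calcium genes and the lowest mutant value for the 8 that separated. Of 5 endothelial genes 1, Pecam1, rose (background 0.775%), with list means of 3.02 to 3.79 in the controls, against 4.24 to 4.37 in the mutants. All 5 separated the groups (background 9.77%), Kdr only narrowly, with a highest control of 10.6 and a lowest mutant of 10.7 FPKM. Kdr (limma adjusted p = 0.639) and Cdh5 (limma adjusted p = 0.465) were far from passing. Cartilage genes were lower in mutants (5 of 10 fell, background 0.465%, list means of 4.83 to 5.01 against 3.22 to 3.79). With the muscle reference as a covariate none of the 10 genes passed, and the log2 fold change was 0.24 for Atp2a1, 0.43 for Ryr1, 0.02 for Trdn and 0.43 for Sln. Since the reference differed between the same groups, a change of the calcium genes and a change in the amount of muscle RNA cannot be told apart.

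Set against the muscle reference of the same library, the calcium genes differed in direction. The level of Sln minus that reference, in log2 units, came to -0.03, -1.89 and 0.91 in the controls, against 2.23, 1.64 and 2.41 in the mutants. Atp2a1 came to 1.02, 0.80 and 1.10 in the controls, against 1.43, 1.90 and 1.60 in the mutants. These 2 genes were higher in all mutants, Sln by 2.43 and Atp2a1 by 0.67. Atp2a2 and Pvalb were lower in all mutants, by a difference of -1.84 for Atp2a2 (from -1.83 ± 0.20 to -3.67 ± 0.48, SD, n = 3) and -1.77 for Pvalb (from 0.63 ± 0.29 to -1.14 ± 0.40). The remaining 4 that separated, Cacng1, Casq1, Casq2 and Trdn, were lower by differences from -0.88 to -0.51. Ryr1 (-0.58) and Cacna1s (-0.38) overlapped. For each of the 8 genes that separated the exact permutation p was 0.1, the smallest possible, and the adjusted p over the 10 genes was 0.125. The reference itself was higher in all mutants, at 8.29, 8.45 and 7.46, against 6.29, 5.50 and 6.46 in the controls. A gene of equal level in both groups therefore comes out lower on this scale. Atp2a2 and Pvalb, with log2 fold changes of 0.15 and 0.21 without the reference, lay near that case. The share of all genes that separate on this scale was not computed, so the count of 8 says nothing particular about these genes. The 12 reference genes themselves differed from their own mean by -0.70 (Klhl41) to 0.96 (Tcap), with Ttn at -0.60 and Neb at -0.62. The differences of Sln, Atp2a2, Pvalb and Cacng1 lay outside that range, and those of the other 6 calcium genes, Atp2a1 among them, lay within it. A ratio of this kind shows unequal change and not which transcript stayed constant.

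**Figure D3:**
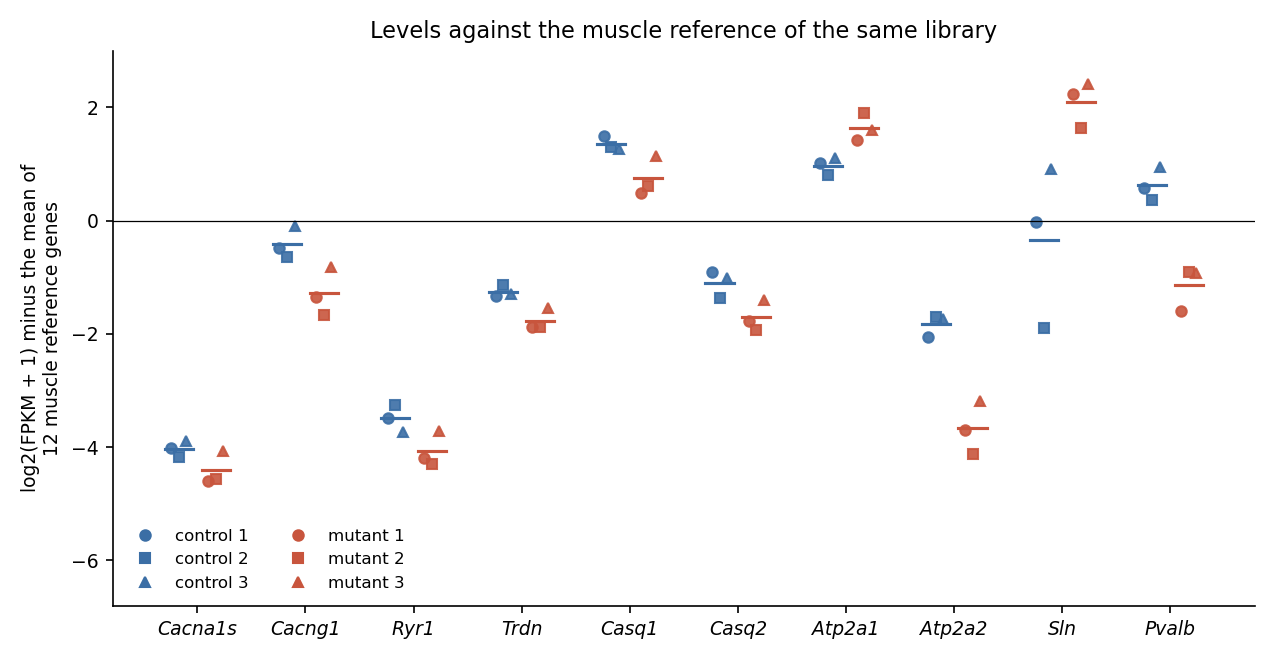
Log2(FPKM + 1) of each calcium gene minus the mean of 12 muscle reference genes in the same library, with controls in blue, mutants in red, 1 symbol per replicate number and a line at each group's mean. Sln and Atp2a1 are higher in all mutants, 6 genes are lower in all mutants, and Ryr1 and Cacna1s overlap.

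Of 21 other genes of the triad and the calcium store, 3 rose and none fell, and 15 separated the groups upward (background 0.775% and 9.77%), with a median log2 fold change of 0.95. Tmem38a, a cation channel of the sarcoplasmic reticulum that balances charge during release, read 26.9, 19.3 and 37.4 FPKM in the controls, against 156, 162 and 94.4 FPKM in the mutants, and rose by a log2 fold change of 2.27 ± 0.29 (limma adjusted p = 0.0158). The muscle caveolin Cav3 rose from 24.0 ± 2.52 to 100 ± 37.2 FPKM (adjusted p = 0.0197) and Jsrp1, which binds the voltage sensor and calsequestrin, from 7.42 ± 2.45 to 30.4 ± 11.3 FPKM (adjusted p = 0.0337). Bin1, which shapes T-tubules, measured 29.9 ± 7.33 and 67.5 ± 15.7 FPKM and did not pass (adjusted p = 0.0623).

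The other SERCA-binding peptides on that list were myoregulin and phospholamban. Mrln, myoregulin, read 23.4, 8.83 and 41.7 FPKM in the controls, against 76.2, 97.4 and 63.8 FPKM in the mutants, separated but not passing (limma adjusted p = 0.0949). Pln, phospholamban of heart and slow muscle, read 11.03, 10.8 and 8.79 FPKM in the controls, against 11.05, 14.3 and 11.7 FPKM in the mutants, a log2 fold change of 0.25 ± 0.22 (limma adjusted p = 0.713). Sln to Mrln, both inhibitors of the pump, came to 3.24, 1.27 and 3.93 in the controls, against 19.2, 11.2 and 14.7 in the mutants, all mutants higher (exact permutation p = 0.1, adjusted p = 0.233).

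**Figure D4:**
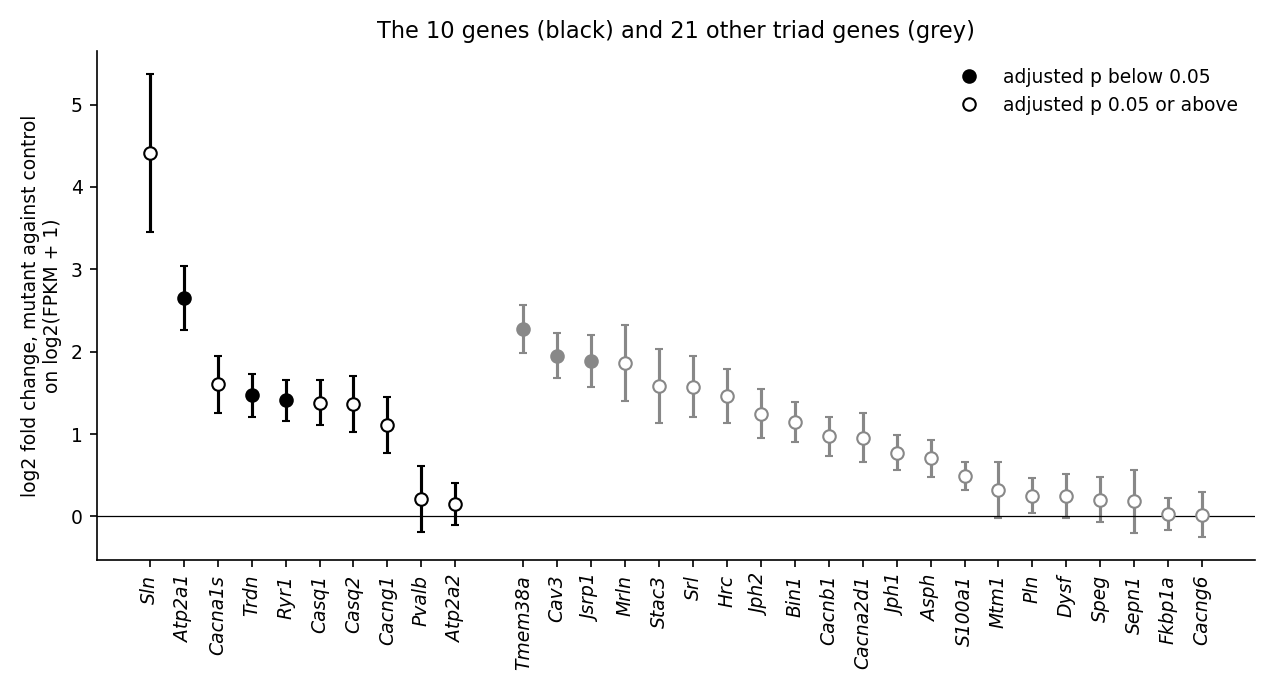
Log2 fold change of mutant against control on log2(FPKM + 1), with limma standard errors, for the 10 calcium genes (black) and 21 other triad genes (grey), filled where the adjusted p is below 0.05. Of the 10 genes Atp2a1, Trdn and Ryr1 are filled, and of the other 21 genes Tmem38a, Cav3 and Jsrp1.

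Of 31 calcium genes used mainly by other cells, limma called 0, with 1 higher and 2 lower at an unadjusted p below 0.05 and a median log2 fold change of 0.04. Over all genes tested 7.94% were higher and 6.11% lower at that p, so these counts are near the background and say nothing particular about the list. The store chaperone Calr read 204, 213 and 280 FPKM in the controls, against 149, 133 and 121 FPKM in the mutants (limma adjusted p = 0.0935). Atp2a3, the SERCA pump of blood and endothelial cells, read 0.242 to 1.77 FPKM in the controls, against 1.94 to 5.94 FPKM in the mutants, within the range of the olfactory receptor genes.

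Fast-fibre sarcomere genes rose in 4 of 11 and none fell (over all genes tested 0.775% rose and 0.465% fell). Among those that rose was Myh1, a fast myosin, at 30.1 to 51.8 FPKM in the controls, against 188 to 472 FPKM in the mutants. All mutants lay above all controls for 8 of the 11 (background 9.77%), whereas Myh2, Myh4 and Actn3 overlapped. Slow-fibre sarcomere genes rose in 2 of 11, Mybpc1 and Myoz2, and none fell. The slow list went both ways: 4 of its genes had all mutants above all controls and 3 had all mutants below (background 9.77% and 9.40%). Among the former that did not pass were the slow troponin Tnnt1 (log2 fold change 1.58, limma adjusted p = 0.162) and Csrp3 (1.54, limma adjusted p = 0.106), and among the latter the slow myosin light chain Myl2, at 11.5 to 24.6 FPKM in the controls, against 0 to 3.28 FPKM in the mutants (limma adjusted p = 0.06). The median log2 fold change was 1.69 for the fast genes and -0.34 for the slow genes, whose values ran from -2.67 for Myl2 to 2.26 for Myoz2.

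By the likeness of the profile over the 6 libraries, measured as the root mean square difference of centred log2(FPKM + 1) values among 11228 genes, the genes nearest to Atp2a1 were the fatty acid transporter Cd36 (0.133), Ndrg2 (0.151), Myh1 (0.171), the muscle mitochondrial creatine kinase Ckmt2 (0.186) and Aldh1a1 (0.197). Those nearest to Atp2a2 were Steap3 (0.064), Pdzd8 (0.075), Rab8a (0.080), Ints6 (0.083) and Commd1 (0.087). Profiles over 6 libraries in 2 groups share the group difference and the library, so nearness is a description.

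The sexes were unequal between the groups, and control 3 was the only control alike in sex to the mutants. The mutant means were 7.09 times the value of control 3 for Sln, 4.78 times for Atp2a1, 2.69 times for Ryr1 and 1.34 times for Cacng1. With controls 1 and 2 left out, the log2 fold change of Atp2a1 was 2.16, that of Ryr1 1.27 and that of Trdn 1.13, and none passed (limma adjusted p = 0.323, 0.371 and 0.442, taking the single control left to vary like the mutants). The calls of the 3 genes were also lost when some single libraries were left out, and so were most calls over all genes. The number called over all genes went from 232 to 13 without control 1 and to 20 without control 2. It went to 19 without mutant 1 and to 57 without mutant 2. Fits without a library also have fewer residual degrees of freedom. Atp2a1 lost its call when control 1, control 2, mutant 1 or mutant 2 was left out (adjusted p = 0.0838, 0.0629, 0.0931 and 0.0625, in a range of 0.008 to 0.967 over all alternatives). Ryr1 (adjusted p = 0.0987, 0.11, 0.145 and 0.128) and Trdn (adjusted p = 0.114, 0.112, 0.143 and 0.123) lost theirs with the same libraries, and Ryr1 also without control 3 (adjusted p = 0.0625). Over all alternatives the adjusted p ran from 0.0206 to 0.956 for Ryr1 and from 0.0199 to 0.996 for Trdn. The log2 fold changes in the fits without a single library ran from 2.28 to 2.98 for Atp2a1, 1.24 to 1.54 for Ryr1 and 1.24 to 1.67 for Trdn.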

How the data were processed

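The authors deposited 1 table of gene symbols and values per library. FPKM is the unit inferred from the deposited values, which are not whole, never below 0 and differ in sum between libraries; the headers name no unit. Libraries were made with SMART-Seq HT and Nextera kits, which do not keep strand, per the labels' protocols. TopHat2 2.0.13, Bowtie2 2.2.3, SAMtools 0.1.19, Cufflinks 2.2.1 and build mm10 are listed, per the submitters' processing notes; their settings and the annotation are not stated in those notes.

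The test covered the 18715 genes that reached 1 FPKM in 3 or more libraries. It used limma 3.58.1 under R 4.3.3 on log2(FPKM + 1) (trend, robust moderation, group as the only term, Benjamini-Hochberg, threshold 0.05). This scale understates changes at low values. In simulated data with known changes, the fit called 10% of log2 changes of 1 and 71% of those of 2. Of its 89 calls there, 8 were false. Genes that did not pass may therefore have changed. The members and lists were chosen with earlier results of these data known. The text names the 10 genes and, in other lists, mostly those with the smallest p; others, such as Mrln, Pln and Rabep2, were chosen after their values were seen. Fragments were estimated as FPKM times the longest GENCODE M21 transcript times the scaling total implied by genes with 1 transcript of at least 1500 bases. Such intervals cover counting error only. Alternatives were other pseudocounts, filters, scalings, moderation and weights, a replicate block, covariates and leaving out libraries.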

Additional observations from a re-analysis of the deposited data

How the results depend on the processing

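Over all genes tested 232 were called, 145 higher and 87 lower in mutants; of the 10 calcium genes 3 were. Those counts became 133 and 1 without a filter on low values (Ryr1 and Trdn missed at adjusted p = 0.0517 and 0.0541), 440 and 5 with a filter of 5 FPKM, 2 and 0 with Xist as a covariate, 5 and 0 with the muscle reference as a covariate, and 5 and 0 without controls 1 and 2. Quantile normalization gave 411 genes over all. Leaving out each library in turn gave 13 to 414 genes and 0 to 3 calcium genes. With the replicate number as a block 2 and 0 were called; the numbers share no label of a litter or day, deviations of same-numbered libraries correlated at 0.006, -0.016 and -0.009, and the block therefore pairs nothing known. Fewer residual degrees of freedom are left by the block, the covariates and each left-out library. The cause of the other changes was not tested. The muscle covariate turned the log2 fold change of Cacna1s to -0.069, Cacng1 to -0.50, Casq2 to -0.50, Atp2a2 to -0.79 and Pvalb to -2.00. Atp2a2 became -0.29 and Pvalb -0.47 with the Xist covariate, -0.32 and -0.47 without controls 1 and 2, and with single libraries left out Atp2a2 ran from -0.074 to 0.38 and Pvalb from -0.21 to 0.56. Neither gene passed in any setting. The Casq1 to Casq2 difference was -0.01 with a pseudocount of 0.1 and after quantile normalization, and -0.07 to 0.13 with libraries left out. The Atp2a1 to Atp2a2 difference stayed between 2.15 and 2.77. Genes that separated relative to the muscle reference numbered 8 to 10, without a share over all genes to set beside them. Casq1 passed with the 5 FPKM filter, quantile normalization and array weights (lowest adjusted p = 0.0283), and Cacna1s with the 5 FPKM filter.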
